A study of Gallus gallus with 9 samples.

Results

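The genes described here encode the insulin-like growth factors (IGFs), the receptors that bind them or insulin, and the IGF-binding proteins (IGFBPs). The 10 genes were IGF1, IGF2, IGF1R, INSR, IGFBP1, IGFBP2, IGFBP3, IGFBP4, IGFBP5 and IGFBP7. Every probe set was taken whose single gene symbol in the platform annotation was 1 of these, which gave 15 of the 37693 chicken probe sets on the array. Their gene IDs were all found in the RefSeq gene table. IGFs are small secreted hormones that bind the tyrosine kinase receptor IGF1R and drive growth and survival. The binding proteins IGFBP1 to IGFBP5 hold IGFs in the tissue fluid and either block or prolong their access to the receptor, while IGFBP7 binds IGFs only weakly. In mammalian fat tissue, IGF1 and insulin promote the differentiation of preadipocytes, the precursors of fat cells.

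Preadipocytes from the abdominal fat of laying hens had been grown to confluence in medium with fetal bovine serum. The 9 samples were 3 untreated controls, 3 given an adipogenic cocktail that the labels call DMIOA without expanding it, and 3 given DMIOA with 10 uM retinoic acid, the vitamin A derivative that activates nuclear retinoic acid receptors. Each group has biological replicates numbered 1 to 3. The labels give neither a treatment time nor the hen or culture behind a replicate, so the spread that p-values measure may be technical. RNA was hybridised to a 1-colour Affymetrix chicken array, and all levels below are the authors' log2 GCRMA values. No detection calls were used here, so a log2 value below 5 is marked as low. Probe sets at 5 or more on at least 3 arrays were tested, 12329 in all. The number of arrays limits the precision.

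Replicate 3 of each group stood apart. The most alike of all arrays were the retinoic acid pair numbered 1 and 2 (r = 0.997 across tested probe sets), and results that rest on them are also given without each. Control replicates 1 and 2 came next (r = 0.995). Fits of replicates 1 and 2 alone keep both pairs. The spread in those fits may be technical, so their calls are given as description only. Markers of mesenchymal cells were high, with 11 of 12 passing the filter and only PDGFRA below 5 on all arrays. With retinoic acid added VIM, LUM, PDGFRB and TWIST1 were below all controls and PRRX1 was above them. The other passing markers overlapped between these groups. LUM had 12.60 to 13.28 in control and 11.21 to 11.61 with retinoic acid added, and PDGFRB 8.51 to 9.07 and 7.43 to 8.16. Of 11 adipocyte markers 5 passed, with PLIN2, FABP4 and PPARG the highest, and the defining genes CEBPA, PLIN1 and ADIPOQ were below 5 on all arrays, as were SCD, DGAT2 and PCK1. The log2 of the adipocyte markers' summed linear signal was 11.04 to 12.18 in control, 12.36 to 13.73 with DMIOA, above all controls, and 11.17 to 13.20 with retinoic acid added. PLIN2, FABP4 and CIDEC were above all controls with DMIOA. LPL was lower with DMIOA in each replicate number (6.63, 6.73 and 8.18 in control, 4.70, 5.04 and 7.50 with DMIOA). PPARG was lower with DMIOA in replicates 1 and 2 and higher in replicate 3. The 3 mesothelial and epithelial markers and the 1 erythroid marker were below 5 on all arrays. Of 14 macrophage and other leukocyte markers 9 passed. The log2 of their summed signal was 6.77 to 7.29 in replicates 1 and 2 and 11.73 to 13.43 in replicate 3, and by group it spanned 6.77 to 13.43 in control, 6.80 to 12.55 with DMIOA and 7.24 to 11.73 with retinoic acid. CD79B, MRC1, CD3E and TLR4 stayed below 5 on all arrays. The 7 endothelial markers, of which 2 passed (CDH5 and PECAM1), had summed values of 8.02 to 9.16 in replicates 1 and 2 and 10.87 to 11.06 in replicate 3. PECAM1 had 6.82 to 7.42 in control, 4.99 to 6.06 with DMIOA and 3.83 to 5.31 with retinoic acid added, an order that CDH5 did not follow. In such bulk samples fewer cells of a type and less RNA per cell cannot be told apart.

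Neither IGF ligand was measured above the low level. IGF1 (gene ID 418090), the ligand that acts through IGF1R, had values of 3.72, 3.14 and 1.87 in control replicates 1, 2 and 3. With DMIOA it had 2.06, 1.49 and 1.34, and with retinoic acid added 1.43, 1.5 and 1.78. All 9 values were below 5, where values have no reliable order, so no difference was tested. IGF2 (gene ID 395097), the other ligand, had 3 probe sets, and their values on the 9 arrays ran from 0.83 to 2.02. IGFBP1 (gene ID 408027), which in mammals is a liver protein lowered by insulin, had values of 1.74 to 2.17. In all, 8 of the 15 probe sets were below 5 on every array, and for 3 of the 10 genes (IGF1, IGF2 and IGFBP1) no probe set reached 5. A value in this range does not show that the transcript was absent.

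**Figure D1:**
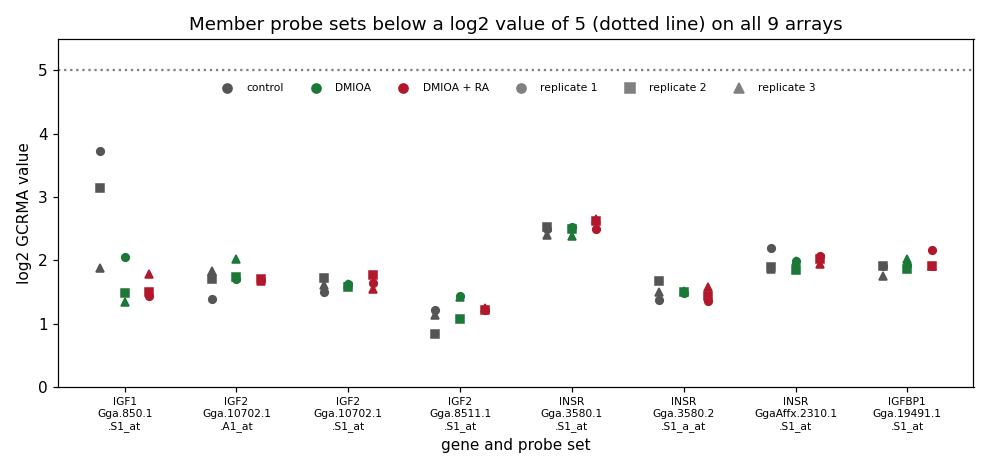
Log2 GCRMA values of the 8 member probe sets that were below 5 (dotted line) on all 9 arrays, by gene and probe set, with colour for the group, a symbol for the replicate number and RA for retinoic acid. The highest value was 3.72, that of IGF1 in control replicate 1.

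The receptor gene IGF1R (gene ID 395889), which encodes the type 1 IGF receptor, fell with DMIOA plus retinoic acid against control. Its values were 8.97, 8.54 and 8.69 in control, 8.60, 8.31 and 8.11 with DMIOA, and 8.06, 8.13 and 7.86 with DMIOA plus retinoic acid. All 3 retinoic acid arrays lay below all 3 control arrays, while the DMIOA arrays overlapped both other groups. Between DMIOA plus retinoic acid and control the difference was -0.72 ± 0.17 (SE), or 1.64-fold (limma, Benjamini-Hochberg adjusted p = 0.0323, 0.0110 with the replicate number as a block). That call, meaning an adjusted p under 0.05, was lost without control replicate 1 or 2 or any 1 array with retinoic acid (up to 0.112), and with replicates 1 and 2 alone (0.0533). The blocked call was lost without control replicate 1 or retinoic acid replicate 1 (up to 0.0602). Each step alone was smaller and was not called: -0.39 ± 0.17 for DMIOA against control (limma adjusted p = 0.434) and -0.32 ± 0.17 for retinoic acid added to DMIOA (adjusted p = 0.419).

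The insulin receptor gene INSR (gene ID 420133) had 4 probe sets, and 1 of them passed the filter at values just above the low level. That probe set had 5.11, 5.48 and 4.89 in control, 5.40, 5.78 and 5.13 with DMIOA, and 5.54, 5.33 and 5.51 with retinoic acid added. The 3 groups overlapped. The fitted differences were 0.28 for DMIOA against control, with a 95% interval of -0.20 to 0.76, and 0.02 for retinoic acid added to DMIOA, with -0.46 to 0.50 (limma adjusted p = 0.679 and 0.980). The other INSR probe sets ran from 1.35 to 2.65 on all arrays and were not tested.

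IGFBP7, IGFBP4 and IGFBP5 were the binding protein genes with lower values in the treated groups. In IGFBP7 and IGFBP4 the mean stepped down from control to DMIOA and again with retinoic acid. The mean of IGFBP5 did so too, but all its retinoic acid arrays were below 5. With 5 in place of those values its second step was at least 1.14-fold. IGFBP7 (gene ID 422620) encodes a secreted matrix-associated protein. It had 12.07, 11.98 and 11.44 in control, 10.74, 10.53 and 10.69 with DMIOA, and 9.53, 9.71 and 10.30 with DMIOA plus retinoic acid. The 3 groups did not overlap. Against control, DMIOA plus retinoic acid was lower by a log2 difference of -1.98 ± 0.24 (SE), or 3.96-fold (limma adjusted p = 0.00268, 0.00417 with the replicate block). This call held without any 1 of the 9 arrays, with adjusted p from 0.00185 to 0.0179.

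Some muscle markers also moved with the groups. Of 5 smooth muscle and pericyte markers 4 passed, and the log2 of their summed signal was 12.33 to 12.68 in control, 12.16 to 12.30 with DMIOA and 11.42 to 12 with retinoic acid added, without overlap. TAGLN, the highest of them on all arrays, had 12.10 to 12.52, 11.96 to 12.12 and 11.32 to 11.78 in these groups, so its control and DMIOA arrays overlapped. CSPG4, a pericyte proteoglycan gene, had 7.29 to 7.33, 5.59 to 6.66 and 2.82 to 3.25 in these groups, and ACTA2, smooth muscle actin, 8.66 to 8.80, 7.17 to 8.48 and 5.87 to 6.28. MYH11, smooth muscle myosin, did not follow that order, with 6.28 to 7.12, 6.81 to 9.60 and 6.63 to 8.88, and RGS5 was below 5 on all arrays. Of 6 skeletal muscle markers 2 passed (ACTA1 and MYH1E), with DES, MYOD1, MYOG and MYF5 below 5 on all arrays. Their summed values were 11.82 to 12.68, 10.67 to 12.23 and 10.71 to 11.11, and those of DMIOA overlapped both other groups. The part of these markers, of the endothelial marker PECAM1 or of the mesenchymal markers in the lower values of IGFBP7, IGFBP4 and IGFBP5 was not tested.

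Neither step of IGFBP7 passed the test alone with all arrays. The difference was -1.18 ± 0.24 for DMIOA against control (limma adjusted p = 0.135, blocked 0.0898) and -0.80 ± 0.24 for retinoic acid added to DMIOA (adjusted p = 0.124, blocked 0.105). By replicate number the first step was -1.34, -1.45 and -0.75 and the second -1.20, -0.82 and -0.39. All 6 differences were negative, and replicate 3 gave the smallest of each step. Replicate 3 had higher leukocyte and endothelial marker sums. With retinoic acid the adipocyte marker FABP4 had 6.41, 6.26 and 12.28 in replicates 1, 2 and 3. With replicates 1 and 2 alone the steps were -1.39 and -1.01, and both were called (limma adjusted p = 0.0356 and 0.0124). That fit keeps the most alike pairs of arrays, so these calls are description only. The second step was also called without retinoic acid replicate 3 (0.0406). Over the alternatives other than single omissions the adjusted p ran from 0.0356 to 0.274 and from 0.0124 to 0.204.

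IGFBP4 (gene ID 374271), which in mammals mainly restrains IGF action until the protease PAPPA cleaves it, showed the largest fitted difference of the tested members. Its values were 9.31, 9.0 and 9.50 in control, 8.11, 8.17 and 8.71 with DMIOA, and 5.79, 5.94 and 7.90 with DMIOA plus retinoic acid. The 3 groups did not overlap, and retinoic acid replicate 3 stood well above the other retinoic acid arrays. Against control, IGFBP4 fell by 2.73 ± 0.52 on the log2 scale with DMIOA plus retinoic acid, or 6.63-fold (limma adjusted p = 0.0147, blocked 0.00436). The call was lost without control replicate 1 or 2 or retinoic acid replicate 1 or 2 (up to 0.0643). With the block it held without any 1 of the 9 arrays (up to 0.0284).

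For retinoic acid added to DMIOA, IGFBP4 had a difference of -1.79 ± 0.52, or 3.46-fold, which was not called (limma adjusted p = 0.116). It was called with the replicate block (0.0291), without retinoic acid replicate 3 (0.00271, at -2.47) and with replicates 1 and 2 alone (0.00242, at -2.28). The blocked call was lost without control replicate 2, any 1 of the DMIOA arrays, or retinoic acid replicate 1 or 2 (up to 0.128). Over the alternatives other than single omissions the adjusted p ran from 0.00242 to 0.236. By replicate number the differences were -2.33, -2.24 and -0.82. The smallest was again that of replicate 3. The part of the leukocyte, endothelial or adipocyte markers in it, as in that of IGFBP7, was not tested. For DMIOA against control IGFBP4 had -0.94 ± 0.52 (adjusted p = 0.542, blocked 0.213), with -1.20, -0.83 and -0.79 by replicate number.

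IGFBP5 (gene ID 424220), the binding protein that attaches to extracellular matrix, had 6.80, 7.0 and 4.71 in control, 5.69, 5.68 and 4.20 with DMIOA, and 3.51, 4.15 and 3.85 with DMIOA plus retinoic acid. It passed the filter through replicates 1 and 2 of control and DMIOA, and replicate 3 of all groups and every retinoic acid array were below 5. The retinoic acid arrays lay below all arrays of both other groups, but those of replicate 3 were low too, where values have no reliable order. The calls of IGFBP5 below are therefore given as description only. Because of the low values, DMIOA plus retinoic acid was at least 2.25-fold lower than control, with a fitted difference of -2.33 ± 0.65 that was not called (limma adjusted p = 0.0525). It was called with the replicate block (0.0128), a call lost without control replicate 1 or 2 or retinoic acid replicate 2 (up to 0.0642). Without the block it was called with cyclic loess and without replicate 3 of control or DMIOA. With replicates 1 and 2 alone the difference was -3.07 (adjusted p = 0.00199), and over the alternatives other than single omissions the adjusted p ran from 0.00199 to 0.0904. DMIOA had a fitted difference of -0.98 from control, with a 95% interval of -2.47 to 0.52 (limma adjusted p = 0.622). For retinoic acid added to DMIOA the fitted difference was -1.35, with -2.85 to 0.14 (adjusted p = 0.357, blocked 0.110, and 0.0120 with replicates 1 and 2 alone). With 5 in place of the low values the folds of the means were 1.64 and 1.14. In replicate 3 the arrays of all groups were below 5, so no step can be read there.

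**Figure D2:**
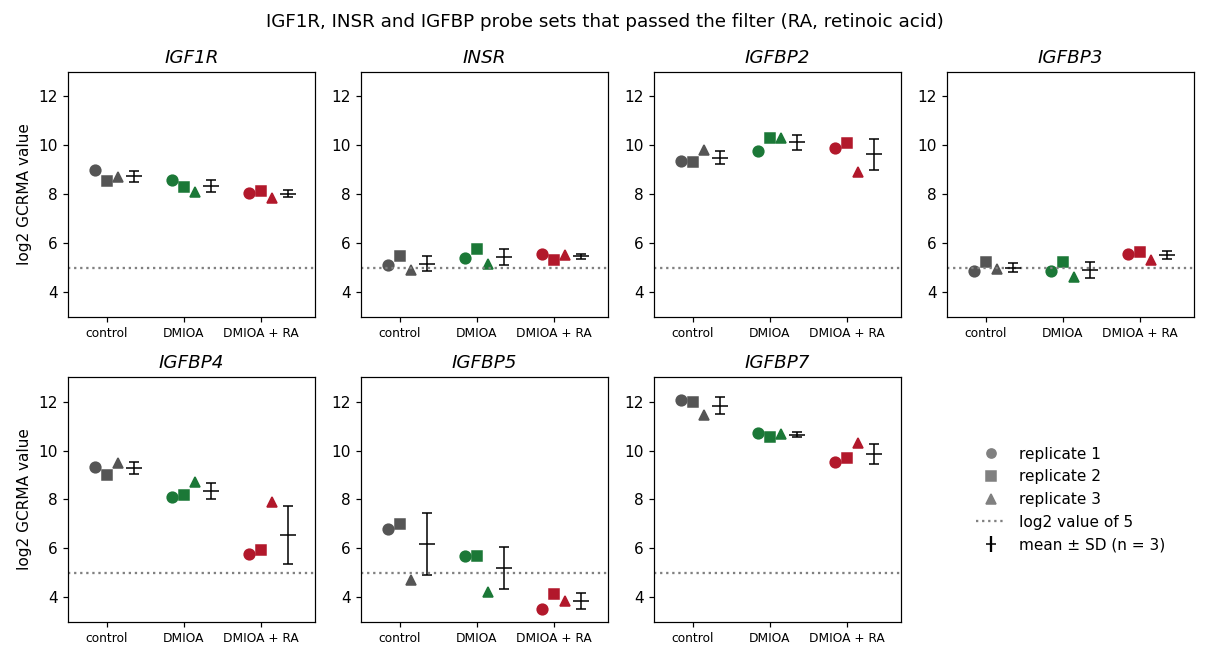
Log2 GCRMA values of the 7 member probe sets that passed the filter, 1 panel per gene, with groups on the x axis, a symbol for each replicate number and the mean ± SD (n = 3 arrays) beside them; RA is retinoic acid and the dotted line marks a log2 value of 5. IGFBP4 and IGFBP7 separate the 3 groups, IGFBP5 falls under the dotted line in all retinoic acid arrays, and INSR and IGFBP2 overlap between groups.

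IGFBP3 (gene ID 420790), which in mammals carries most of the IGF in blood, went the other way. Its values were 4.85, 5.21 and 4.95 in control, 4.88, 5.25 and 4.61 with DMIOA, and 5.56, 5.63 and 5.31 with DMIOA plus retinoic acid. The retinoic acid arrays lay above all 6 others, of which only control replicate 2 and DMIOA replicate 2 reached 5. The probe set thus passed the filter only through the retinoic acid arrays, where it was high. Values below 5 have no reliable order, so the separation and the calls below are given as description only. Retinoic acid added to DMIOA gave a difference of 0.59 ± 0.19, at least 1.33-fold (limma adjusted p = 0.161). This was called only with the replicate block (0.0328), and the adjusted p ran from 0.0328 to 0.256 over the alternatives other than single omissions. The blocked call held without control replicate 3 or DMIOA replicate 2 and was lost without any other array (up to 0.149). By replicate number it was 0.68, 0.38 and 0.70. Against control the difference was 0.49 ± 0.19 (adjusted p = 0.126, blocked 0.0283), and that blocked call was lost without control replicate 1 or 2 or any 1 of the retinoic acid arrays (up to 0.126). With DMIOA alone IGFBP3 differed from control by -0.09 ± 0.19.

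IGFBP2 (gene ID 396315), a binding protein that mammalian preadipocytes secrete, was not called in any comparison. It had 9.37, 9.30 and 9.80 in control, 9.75, 10.29 and 10.30 with DMIOA, and 9.88, 10.11 and 8.89 with DMIOA plus retinoic acid. Retinoic acid replicate 3 was the lowest of the 9 arrays, and the groups overlapped. DMIOA against control gave 0.62, with a 95% interval of -0.14 to 1.38 and the same sign in each replicate number (limma adjusted p = 0.521). Retinoic acid added to DMIOA gave -0.49, with an interval of -1.24 to 0.27, of which replicate 3 alone had -1.41 and replicates 1 and 2 had 0.13 and -0.18. With the block and without retinoic acid replicate 3, IGFBP2 was called higher with DMIOA plus retinoic acid than in control (limma adjusted p = 0.0426); with the block and all arrays it had 0.789.

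4 of the binding protein genes lie in neighbouring pairs. In the RefSeq gene table of the chicken assembly GRCg7b, IGFBP1 and IGFBP3 stand next to each other among protein-coding genes, as do IGFBP2 and IGFBP5. IGFBP5 was above 5 in control replicates 1 and 2 and below it on all retinoic acid arrays, while IGFBP2 differed between these groups by 0.51, 0.81 and -0.91 in replicates 1, 2 and 3. IGFBP3 was higher with DMIOA plus retinoic acid in each replicate number (0.71, 0.41 and 0.36), with control replicates 1 and 3 below 5, while IGFBP1 stayed low on all arrays. The difference between neighbours was not tested.

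**Figure D3:**
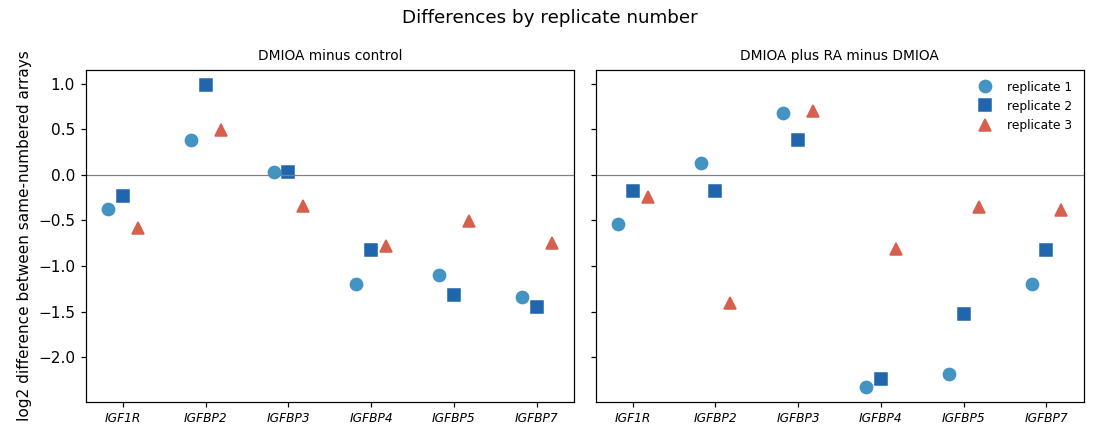
Log2 differences between arrays of the same replicate number for 6 member genes, DMIOA minus control on the left and DMIOA plus retinoic acid (RA) minus DMIOA on the right. For IGFBP4 and IGFBP7 all points lie below 0, and with retinoic acid added those of replicate 3 are the closest to it, at -0.82 and -0.39; the IGFBP5 points of replicate 3 are between arrays below 5 and cannot be read.

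Counted over the comparisons, 0 of the 7 tested member probe sets were called between DMIOA and control by limma, where 0.146% of all 12329 were called, and 1 (IGFBP7) reached an unadjusted p below 0.05, as did 11.6% of all. The blocked count was also 0, against 1.29% of all. Without retinoic acid replicate 3 the blocked count was 2 (IGFBP4 and IGFBP7, limma adjusted p = 0.0345 and 0.0381), where 398 of all 12329 were called. Replicates 1 and 2 alone gave 1 call, IGFBP7 (1.4% of all). For retinoic acid added to DMIOA 0 of 7 were called (3.89% of all), with 3 at an unadjusted p below 0.05 (16.2% of all), and 2 with the block (10.8% of all), IGFBP4 lower and IGFBP3 higher. Replicates 1 and 2 alone gave 3 calls there, IGFBP4, IGFBP5 and IGFBP7 (12.3% of all). For DMIOA plus retinoic acid against control 3 of 7 were called, IGF1R, IGFBP4 and IGFBP7, all lower (13.2% of all were called, 6.42% lower). With the block 5 were called (28.8% of all), adding IGFBP5 lower and IGFBP3 higher. With replicates 1 and 2 alone the 3 called were IGFBP4, IGFBP5 and IGFBP7 (29.4% of all). The count was 1, IGFBP7, without control replicate 1 or 2 or retinoic acid replicate 1 or 2, where 546 to 665 of all 12329 were called. Groups did not overlap in 2, 4 and 5 of the 7 in the order of these comparisons, against 15.5%, 22% and 38.6% of all probe sets. The non-overlap counts of 4 and 5 include IGFBP3 and IGFBP5, which passed the filter only through groups where they were high. The blocked counts of 2 and 5 also include IGFBP3, and that of 5 IGFBP5. Both counts of 3 with replicates 1 and 2 alone include IGFBP5. These 2 genes are in the counts as description only. The 3 comparisons share arrays, so their counts are not independent, and the other 8 member probe sets, below 5 throughout, were not tested.

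**Figure D4:**
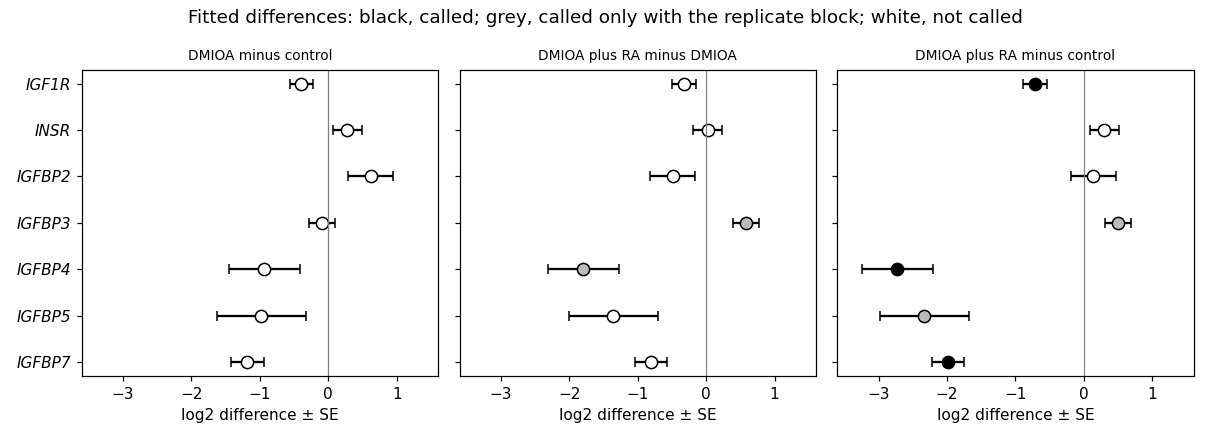
Fitted log2 differences ± SE of the 7 tested member probe sets in the 3 comparisons (RA, retinoic acid). Black points were called by limma at an adjusted p under 0.05, grey points only with the replicate block, and white points in neither fit; the black points are IGF1R, IGFBP4 and IGFBP7 against control.

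Genes that act on the same pathway were taken as lists. Of 15 listed genes on the array that hold, cleave or store IGFs or bind their mRNAs, 8 passed the filter. By limma 0 were called in any comparison (0.146%, 3.89% and 13.2% of all probe sets), with 1, 1 and 0 at an unadjusted p below 0.05. With the block 1 was called lower with retinoic acid added to DMIOA (10.8% of all) and 1 against control (28.8% of all). The list's median differences for DMIOA against control, retinoic acid added, and DMIOA plus retinoic acid against control were -0.11, -0.25 and -0.25, where those of all tested probe sets were 0.02, 0.04 and 0.08. STC2, which encodes stanniocalcin 2, an inhibitor of the PAPPA proteases in mammals, had 5.03, 5.57 and 3.90 in control. It had 6.43, 9.20 and 4.48 with DMIOA and 3.08, 3.26 and 2.63 with retinoic acid added. STC2 passed the filter through replicates 1 and 2 of control and DMIOA, where it was high. All other arrays were below 5, where values have no reliable order, so its calls are given as description only. With 5 in place of the low retinoic acid values it was at least 3.26-fold under DMIOA (limma adjusted p = 0.108, blocked 0.0244). DMIOA replicate 2 was the highest array, and the blocked call was lost without control replicate 1, DMIOA replicate 1, or retinoic acid replicate 1 or 2 (up to 0.0938). MMP2, a matrix protease gene, had -0.32 ± 0.15 against control (adjusted p = 0.200, blocked 0.0460), and the blocked call held in 1 of 9 cases with single arrays left out (up to 0.185).

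Of 37 listed genes of the IGF and insulin signalling chain on the array, 31 passed the filter. In the DMIOA and control comparison neither fit called any of them (0.146% of all probe sets, 1.29% with the block). At an unadjusted p below 0.05 there were 5 (11.6% of all). With retinoic acid added to DMIOA 2 rose and 2 fell of the 31 (3.89% of all probe sets were called), and the blocked fit called 4 higher and 3 lower (10.8% of all). These shares were above the background, a difference that was not tested. Against control the fit without the block called 3 higher and 2 lower (13.2% of all), and the blocked fit 6 and 2 (28.8% of all), shares near the background. The list's medians were -0.05, 0.08 and 0.08 in the order given above, close to those of all probe sets. The genes called went both ways.

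PIK3CD, a catalytic subunit of PI3-kinase, had 7.22, 7.45 and 7.93 in control, 6.98, 6.56 and 7.07 with DMIOA, and 5.84, 5.91 and 5.74 with retinoic acid added. The groups did not overlap, and it fell by 1.70 ± 0.21 against control (limma adjusted p = 0.00292) and by 1.04 ± 0.21 against DMIOA (adjusted p = 0.0359). PIK3CD is expressed mainly in leukocytes in mammals. In replicate 3, where the leukocyte markers were high, its value was the highest of the group in control and DMIOA and the lowest with retinoic acid added. With replicates 1 and 2 alone the difference from control was -1.46 (adjusted p = 0.00586), and the part of the leukocyte markers was not tested. HRAS, a small GTPase of the MAP kinase branch, fell by 0.95 ± 0.10 against control (adjusted p = 0.00164) and by 0.57 ± 0.10 against DMIOA (adjusted p = 0.0206). PIK3R1, the regulatory subunit of PI3-kinase, had a difference of -1.33 ± 0.38 against DMIOA, called with the block (adjusted p = 0.108, blocked 0.0195) and, without it, when DMIOA replicate 1 was left out (0.0474). Of its other probe sets 1 was called with the block too (-1.43) and 1 was not (-1.69, blocked 0.0899).

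RICTOR, the subunit that defines mTOR complex 2, had 7.28, 7.41 and 7.34 in control, 7.48, 7.52 and 7.52 with DMIOA, and 8.65, 8.65 and 8.16 with retinoic acid added. It rose by 1.14 ± 0.15 against control (limma adjusted p = 0.00349) and by 0.98 ± 0.15 against DMIOA (adjusted p = 0.0122). A second RICTOR probe set had 1.14 against control and 0.76 against DMIOA, of which only the first was called (adjusted p = 0.0384 and 0.234). RPS6KB1, the S6 kinase gene, rose by 0.87 ± 0.24 against control (adjusted p = 0.0498) and had 0.90 ± 0.24 against DMIOA, called with the block (adjusted p = 0.0849, blocked 0.0195) and with replicates 1 and 2 alone (0.0376). MAP2K1, a MAP kinase kinase gene, rose by 0.57 ± 0.12 against DMIOA (adjusted p = 0.0417), and its second probe set had 0.69, called only with the block (adjusted p = 0.526, blocked 0.0340). SOCS1, a cytokine-induced inhibitor that also acts on insulin receptor substrates, had 4.72, 4.58 and 6.63 in control and 7.64, 7.71 and 7.66 with DMIOA plus retinoic acid. It was at least 4.37-fold higher there (adjusted p = 0.0393). With DMIOA alone it had 5.90, 7.23 and 7.57, which was not called (adjusted p = 0.361).

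The adaptor gene IRS4, an insulin receptor substrate, had 0.67 ± 0.18 against DMIOA, called with the block (limma adjusted p = 0.0930, blocked 0.0321). PTPN1, a phosphatase that acts on the insulin receptor, had 4.69, 4.62 and 5.79 in control and 4.60, 4.92 and 5.48 with DMIOA. With DMIOA plus retinoic acid it had 5.63, 5.56 and 5.94. It passed the filter only with the help of these retinoic acid arrays, where it was high, so its calls are given as description only. The difference against control was 0.67 ± 0.35, called with the block (limma adjusted p = 0.231, blocked 0.0368), with replicates 1 and 2 alone (0.00970) and without control replicate 3 (0.0377). With single arrays left out, the blocked call held in 2 of 9 cases for IRS4 (up to 0.126), 3 for PTPN1 (up to 0.149), 5 for RPS6KB1 against DMIOA (up to 0.0999) and 6 for PIK3R1 (up to 0.0916). Against control the calls of PIK3CD, HRAS and RICTOR held without any 1 of the 9 arrays (adjusted p up to 0.0221). Those of RPS6KB1 and SOCS1 were lost without control replicate 1 or 2 or any 1 of the retinoic acid arrays, without DMIOA replicate 2, and for RPS6KB1 without DMIOA replicate 3 (up to 0.172 and 0.139). Against DMIOA, RICTOR was lost without retinoic acid replicate 1 or 2 (up to 0.0713) and MAP2K1 without any 1 of the 9 arrays (up to 0.130). HRAS was lost without any 1 DMIOA array or retinoic acid replicate 1 or 2 (up to 0.115), and PIK3CD without control replicate 2, DMIOA replicate 1 or 3, or any 1 retinoic acid array (up to 0.139).

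**Figure D5:**
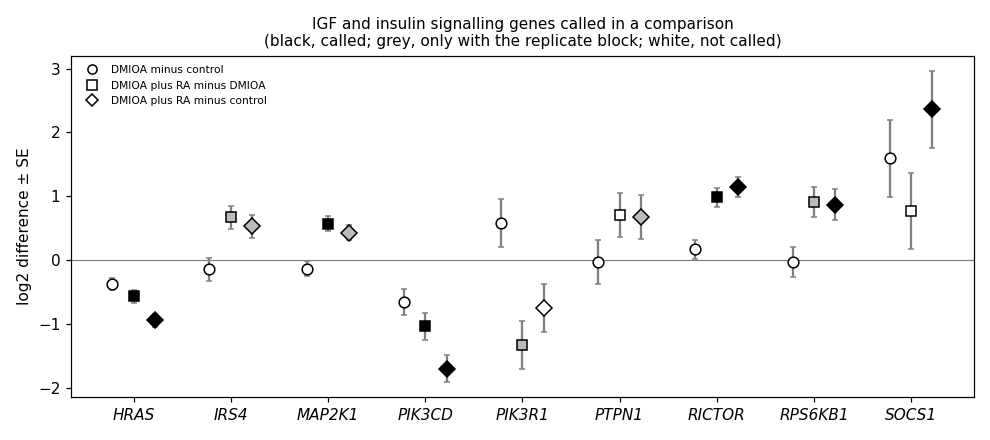
Fitted log2 differences ± SE of the 9 IGF and insulin signalling genes called in any comparison with or without the replicate block (RA, retinoic acid); circles, squares and diamonds are the 3 comparisons. PIK3CD and HRAS lie below 0 and RICTOR above it in both retinoic acid comparisons.

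Insulin and IGF signals act in part by switching off FOXO transcription factors, so their known target genes were listed as well. Of 14 on the array 9 passed, and limma called 0 of them between DMIOA and control (0.146% of all probe sets). At an unadjusted p below 0.05 there were 2 (11.6% of all), named though not called. They were PDK4 (3.54 ± 0.78, adjusted p = 0.168) and BCL6 (0.48 ± 0.18, adjusted p = 0.349), both higher. Limma called 1 with retinoic acid added to DMIOA (3.89% of all) and 1 against control (13.2% of all). The blocked fit called 1 higher and 1 lower (10.8% of all), and against control 1 higher and 2 lower (28.8% of all). KLF15, a metabolic transcription factor gene, was the only 1 called without the block, lower in both retinoic acid comparisons. It had 9.33, 9.19 and 7.92 in control, 9.74, 9.85 and 8.16 with DMIOA, and 6.48, 6.40 and 5.71 with retinoic acid added. It fell by 3.05 ± 0.54 against DMIOA (limma adjusted p = 0.0217, blocked 0.000713) and by 2.61 ± 0.54 against control (adjusted p = 0.0199). Without the block those calls were lost without DMIOA replicate 1 or 2 or any 1 retinoic acid array in the first, and without control or retinoic acid replicate 1 or 2 in the second (up to 0.0835 and 0.0804). With the block FBXO32, a ubiquitin ligase gene, was also called against DMIOA (0.74, adjusted p = 0.362, blocked 0.0240). Against control BCL6, a transcriptional repressor gene, was called higher with the block (0.62, adjusted p = 0.0543, blocked 0.0234) and CDKN1B, a cell cycle inhibitor gene, lower (-0.44, adjusted p = 0.312, blocked 0.0244). With single arrays left out these blocked calls held in 4 of 9 cases for FBXO32, 3 for BCL6 and 5 for CDKN1B (up to 0.101, 0.103 and 0.113). The list's medians were 0.36, 0.06 and 0.25 in the order given above.

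For each member called in any comparison with or without the block, the 3 tested genes with the highest Pearson's r over the 9 arrays were found. This measure takes no account of the level or of the size of a change. The values of r are descriptions over arrays that share the treatments and the split of replicate 3. For IGFBP4 the 3 genes were JUP, the junction protein plakoglobin gene (r = 0.989), UACA (0.979) and CRIP1, a LIM protein gene (0.977). JUP had 10.24, 10.20 and 10.45 in control, 9.58, 9.74 and 10.06 with DMIOA, and 8.75, 8.75 and 9.49 with retinoic acid, so it shared the higher value of retinoic acid replicate 3. For IGFBP7 they were TTC19, a respiratory chain assembly gene (0.982), IFT27, a cilium transport gene (0.978), and PHKA2, a phosphorylase kinase subunit gene (0.976). IGFBP5 was closest to MXRA7 (0.971), FBXW8 (0.967) and MND1 (0.967). On 5 of the 9 arrays IGFBP5 was below 5, as were FBXW8 and PHKA2 on most, and IGFBP3 on 4, where values have no reliable order. IGFBP3 was closest to PARD3, a cell polarity gene (0.964), RNF11 (0.948) and PDLIM4 (0.944), and IGF1R to RUSC2 (0.949), GPT2, an alanine aminotransferase gene (0.938), and ADSS1 (0.937).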

How the data were processed

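The authors deposited log2 values for each probe set of 9 arrays; the submitters' processing notes name GCRMA, with no version or settings stated in the sources used here. GCRMA corrects background from the probes' base composition, puts the arrays on a common distribution and gives 1 value per probe set, and the values (0.362 to 15.0) fit a log2 scale. Per the labels' protocols, TriZol was used to extract RNA. The titles of the control and DMIOA samples carry a "(2)" that those with retinoic acid lack, and its effect, if any, cannot be told apart from that of retinoic acid. Gene names came from the platform annotation.

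Chicken probe sets at a log2 value of 5 or more on at least 3 arrays were fitted with limma 3.58.1 (R 4.3.3), a mean per group over all 9 arrays. The p-values were adjusted by Benjamini-Hochberg over all 12329 and called under 0.05. Folds against arrays below 5 are bounds on the fold of the group means, with 5 in place of the lower values, and do not cover the spread between arrays. Same-numbered arrays of different groups deviated together from their group means (9 pairs, r = 0.375 to 0.857). Most of this came with replicate 3: between groups, replicates 1 and 2 gave r = 0.375 to 0.730 with the same number and 0.321 to 0.668 with different numbers. The fit with the replicate number as a block is printed beside a result whose call or count it changes. Every member probe set is described; of each list, up to 4 genes called per comparison and direction with or without the block, by largest difference, are named, and the probe set with the highest mean stands for a gene. The members and lists were chosen with earlier results of these data known. The fit was run on simulated data with known changes, to check the fitted differences. The noise there was drawn independently for each array and scaled below the spread within groups. That run therefore does not show how reliable the calls are here. Alternatives covered the filter, the normalization, the variance prior, the arrays entered and the block.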

Additional observations from a re-analysis of the deposited data

How the results depend on the processing

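Of the members' differences under the alternatives, 315 kept their direction and side of the threshold, 14 were newly called, 10 were no longer called and 9 changed sign. Fits with both the block and a single array left out are not in these counts. Their ranges are given below as those with the block. The sign changes were in differences that were not called. INSR with retinoic acid added to DMIOA had -0.071 with cyclic loess and -0.16 with replicates 1 and 2 alone, and -0.13 to 0.19 without single arrays (-0.15 to 0.25 with the block). IGFBP3 with DMIOA against control had 0.033 with replicates 1 and 2 alone, and -0.258 to 0.060 without single arrays (-0.175 to 0.0053 with the block). IGFBP2 had -0.11 to 0.50 for DMIOA plus retinoic acid against control without single arrays (-0.12 to 0.63 with the block), and with the block -0.735 to 0.0058 for retinoic acid added to DMIOA.

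Counts over all probe sets depended on the block and on single arrays. DMIOA against control had 18 calls: 11 with an intensity trend and robust prior, 0 from only the 2 groups compared, 159 with the replicate block, 172 with replicates 1 and 2 alone, 0 to 39 without single arrays, and 0 to 398 with the block as well. Retinoic acid added to DMIOA had 479: 216 from the 2 groups, 1336 with the block, 1517 with replicates 1 and 2 alone, 146 to 602 without single arrays, and 371 to 1560 with the block. DMIOA plus retinoic acid against control had 1623: 3546 with the block, 3620 with replicates 1 and 2 alone, 546 to 1997 without single arrays, and 1343 to 3898 with the block. Cyclic loess turned its split of 831 higher and 792 lower into 612 and 935. The cause was not tested. Counts of members called were 0, 0 and 3 in these comparisons, and 0, 2 and 5 with the block. With replicates 1 and 2 alone they were 1, 3 and 3. Without single arrays they were 0 throughout, 0 to 2 and 1 to 4, and with the block 0 to 2, 0 to 3 and 2 to 5. The block changed no other member's call. Some of these member counts include IGFBP3 or IGFBP5, which passed the filter only through groups where they were high. Arrays with 3 per group limit the precision, and values below 5 have no reliable order.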

Other observations

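The CCN genes encode secreted matrix proteins that share an IGF-binding domain fold with the binding proteins. All 6 on the array passed the filter. By limma 1 fell with retinoic acid added to DMIOA (3.89% of all probe sets were called) and 2 against control (13.2% of all). The replicate block gave the same counts (10.8% and 28.8% of all). None was called between DMIOA and control by limma (0.146% of all), and 1 (WISP2) had an unadjusted p under 0.05 (11.6% of all). CCN3 had 12.27, 12.40 and 11.63 in control, 12.46, 13.43 and 11.93 with DMIOA, and 10.04, 10.06 and 10.34 with retinoic acid added. The retinoic acid arrays lay below all others, 5.51-fold under DMIOA (log2 difference -2.46 ± 0.37 SE, limma adjusted p = 0.0119), a call lost without retinoic acid replicate 1 or 2 (up to 0.0636). Against control CCN3 fell by 1.96 ± 0.37 (adjusted p = 0.0148), lost without control or retinoic acid replicate 1 or 2 (up to 0.0673). CYR61 fell by 0.83 ± 0.23 against control (adjusted p = 0.0492), a call that held only without DMIOA replicate 2 when arrays were left out (up to 0.160).

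WISP2, chosen after its values were seen, had 11.52, 11.40 and 11 in control, 10.36, 7.40 and 9.23 with DMIOA, and 9.99, 10.14 and 10.50 with retinoic acid added. The DMIOA difference from control, -2.31 ± 0.64, was not called (limma adjusted p = 0.229), and DMIOA replicate 2 was the lowest array. Its second probe set had -3.02 (adjusted p = 0.245).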
